A study of Mus musculus with 16 samples.

Results

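Enteroendocrine cells are scattered hormone-secreting cells of the gut epithelium. In the colon they comprise L cells, which make proglucagon (Gcg), peptide YY (Pyy) and insulin-like peptide 5 (Insl5), enterochromaffin cells, which make serotonin through tryptophan hydroxylase 1 (Tph1), and D cells, which make somatostatin (Sst). Their dense-core granules hold the granins chromogranin A (Chga) and chromogranin B (Chgb), prohormones are cut by convertases inside these granules, and NeuroD1 is a transcription factor of the lineage. Several of these cells sense bacterial products such as short-chain fatty acids, and they therefore sit between the colonizing microbiota and the host. The genes described here are Gcg, Pyy, Insl5, Chga, Chgb, Tph1, Neurod1, Sst, cholecystokinin (Cck) and neurotensin (Nts). They were taken by the gene name in the array output, without a rule on their values. The list itself was set with earlier results of these data known. All 10 were found among the 36711 genes tested.

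Colon RNA was measured at weaning in 16 RjOrl:SWISS pups, an outbred stock, on 1-colour Agilent arrays with 1 array per pup. The question was how delivery by C-section (CSD) alters the colon transcriptome compared with vaginal delivery (VD). CSD litters were taken by hysterectomy and fostered by dams that had delivered vaginally, and VD litters were exchanged between their dams, so that pups of both groups were raised by a dam other than their own. The 8 CSD pups came from biological mothers 3 and 4, each with 2 females and 2 males. The 8 VD pups came from mother 5 (2 females and 3 males) and mother 6 (3 males). No mother had pups in both groups, hence delivery mode varied only between litters, with 2 litters per group. The arrays lay on 2 slides with 4 CSD and 4 VD pups each. Values are log2 normalized intensities, in which a difference of 1 is a doubling, and errors are SD over 8 pups per group. The array of VD pup 11 had the smallest share of spots well above background, 58.7% against 61.6% to 64.9% on the other 15 arrays. In whole colon, fewer cells of a type and less RNA per cell cannot be told apart.

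None of the 10 genes differed between CSD and VD pups after adjustment (0 of 10 with a limma adjusted p under 0.05), where 1.25% of all genes passed, 0.706% as higher and 0.548% as lower in CSD pups. The estimates ran in both directions, 5 above and 5 below 0, and their median log2 difference was -0.02 against 0.00 over all genes. On the gene values, each the mean over a gene's probes, the outermost bounds of the 95% intervals were 1.28-fold upward (Tph1) and 0.64-fold downward (Sst). These bounds hold for the model reported. The upper bound of Tph1 was a log2 difference of 0.35, and its estimate was 0.36 with the intensity as corrected by the scanner software. The intervals of single probes reached further, up to a log2 difference of 0.60 for the first Gcg probe and 0.59 for the brightest Tph1 probe. Tph1 was the 1 gene with an unadjusted p under 0.05, a share of 10% against 14.5% of all genes. In none of the 10 genes did the CSD and VD pups separate completely, as they did in 0.496% of genes. Both CSD litter means lay on one side of both VD litter means in 4 genes, Pyy, Chga, Chgb and Tph1, and in 42% of all genes. All but Nts were well above background on all 16 arrays, and Nts was so on 3 arrays.

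**Figure D1:**
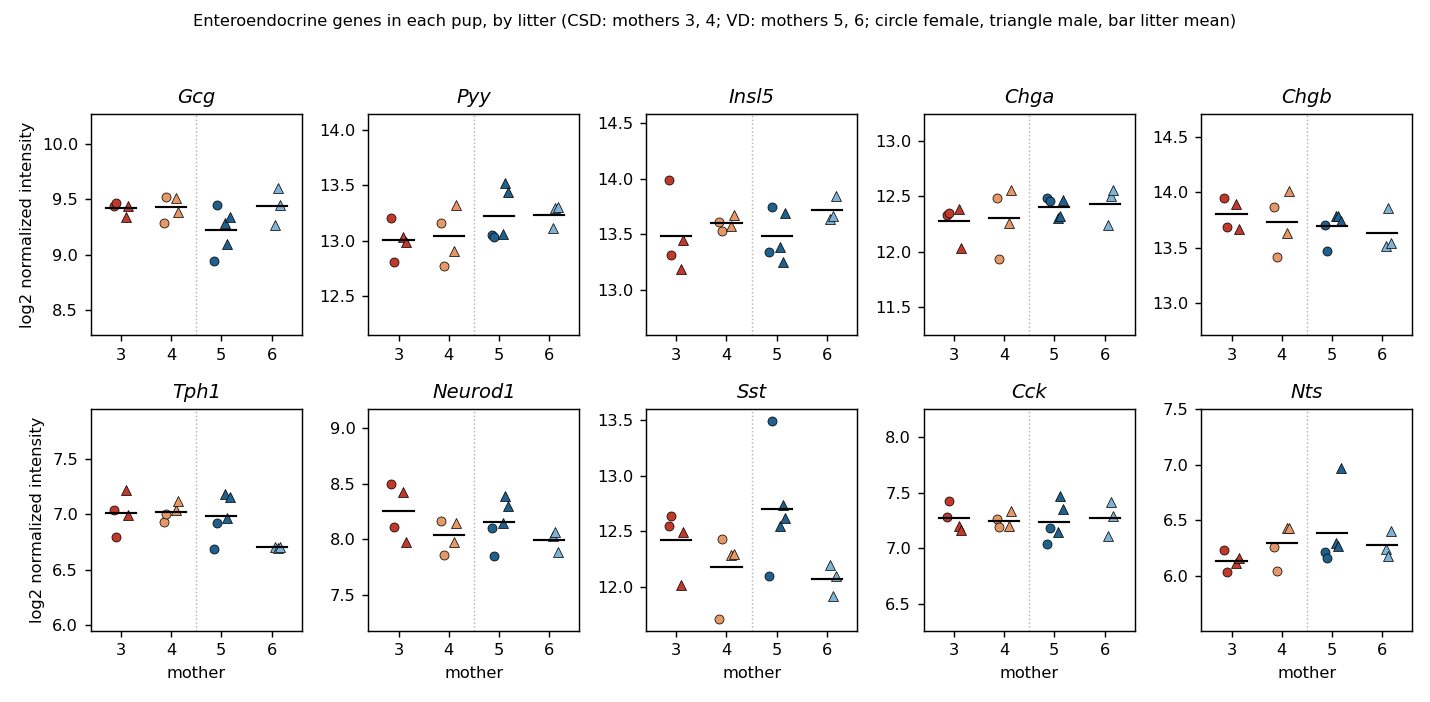
Log2 normalized intensity of each enteroendocrine gene (vertical axis, each panel spanning the same log2 range) in each pup, by biological mother (horizontal axis, CSD mothers 3 and 4 in red and orange, VD mothers 5 and 6 in dark and light blue). Circles are females, triangles males and bars litter means. The CSD and VD pups overlap in all 10 panels, the 3 pups of mother 6 lie together at 6.70 for Tph1, and VD pup 4 stands at 13.50 for Sst.

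Among the L-cell hormones, the estimate for CSD over VD pups was negative for Pyy, positive for Gcg and near 0 for Insl5, with intervals that spanned 0 for all 3. Peptide YY slows transit and lowers appetite. Its probe lies in coding sequence on the minus strand of chr11:101968311-101968370 (mm9) and is shown because it reads the end of the hormone itself: the capitals mark a glycine codon followed by 2 codons for basic residues, the signal at which the prohormone is cut and the peptide is amidated.
Pyy: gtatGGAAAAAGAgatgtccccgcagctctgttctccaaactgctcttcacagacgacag
The intensity of Pyy ranged from 12.77 to 13.32 in CSD pups (median 13.01) and from 13.03 to 13.52 in VD pups (median 13.20). Of the 8 CSD pups, 5 were below every VD pup, while CSD pup 6 was above 6 VD pups. The means were 13.03 ± 0.20 and 13.23 ± 0.19 (SD, n = 8 each), a difference adjusted for sex of -0.16 (SE 0.09, 95% interval -0.36 to 0.03, limma adjusted p = 0.441). The two-sided exact permutation test of the means, which takes account of neither litter nor sex, gave p = 0.0559. The 4 litter means were 13.01 and 13.04 for CSD mothers 3 and 4, and 13.22 and 13.24 for VD mothers 5 and 6. The difference was negative on both slides (-0.12 on slide 1 and -0.21 on slide 2) and in males alone (-0.23).

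Proglucagon is the precursor of glucagon-like peptides 1 and 2, the latter a growth factor of the gut epithelium. Averaged over its probes, Gcg ranged from 9.28 to 9.52 in CSD pups (median 9.44) and from 8.94 to 9.60 in VD pups (median 9.31). The CSD values lay entirely inside the VD range. The means were 9.42 ± 0.08 and 9.30 ± 0.21, a difference of 0.13 (SE 0.08, 95% interval -0.04 to 0.31, limma adjusted p = 0.500). The array carries 2 Gcg probes, and the gap between their estimates was not tested. The first, designed on the mature transcript, averaged 11.94 ± 0.13 in CSD and 11.69 ± 0.43 in VD pups, a difference of 0.27 (SE 0.16, limma adjusted p = 0.449 over all probes). Its lowest values were 10.96 and 11.29, in VD pups 5 and 10 of mother 5, and the 3 pups of mother 6 ranged from 11.62 to 12.28. The second, designed on another transcript model, averaged 6.91 in both groups with a difference of -0.01 (SE 0.04), and the value of the gene is the mean of both. The difference of the gene was 0.28 on slide 1 and -0.02 on slide 2, and it was 0.05 without VD pup 5 and -0.02 without the litter of mother 5.

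Insulin-like peptide 5, a relaxin-family hormone of colonic L cells, overlapped widely between the groups. Its probe (minus strand of chr4:102690720-102690779, mm9) covers the end of the coding sequence. The capitals mark cysteine codons of the A chain, which carries the disulfide bonds of the family.
Insl5: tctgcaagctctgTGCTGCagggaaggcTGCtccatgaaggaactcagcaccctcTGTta
Insl5 ranged from 13.19 to 13.99 in CSD pups (median 13.55) and from 13.25 to 13.84 in VD pups (median 13.65). The highest and the lowest pup of the study, CSD pups 3 and 8, were littermates. The means of 13.54 ± 0.24 and 13.57 ± 0.21 differed by -0.05 (SE 0.12, 95% interval -0.29 to 0.20, limma adjusted p = 0.894). The sign of this difference was positive on slide 1 (0.12) and negative on slide 2 (-0.23).

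The granins, which pack hormones into dense-core granules and serve as general markers of endocrine cells, had estimates of opposite sign, neither past the threshold. Chga ranged from 11.93 to 12.56 in CSD pups (median 12.34) and from 12.24 to 12.55 in VD pups (median 12.46). The 2 CSD pups numbered 2 and 9 were below all VD pups. The means were 12.29 ± 0.21 and 12.42 ± 0.11, a difference of -0.13 (SE 0.09, 95% interval -0.32 to 0.06, limma adjusted p = 0.550). The difference was -0.25 on slide 2 and 0.00 on slide 1, and it was -0.08 without CSD pup 9. Chgb ranged from 13.41 to 14.01 in CSD pups (median 13.78) and from 13.47 to 13.86 in VD pups (median 13.72). Of the CSD pups, 4 were above all VD pups and 1, CSD pup 2, was below them. The means were 13.77 ± 0.20 and 13.68 ± 0.15, a difference of 0.11 (SE 0.09, 95% interval -0.07 to 0.30, limma adjusted p = 0.604). The Chgb probe was spotted 10 times on each array, with a median SD of 0.15 between these spots.

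Tph1, the rate-limiting enzyme of serotonin synthesis in the gut, had a larger estimate between the VD litters than between delivery modes, although the gap between these estimates was not tested. It ranged from 6.80 to 7.22 in CSD pups (median 7.02) and from 6.68 to 7.19 in VD pups (median 6.81). The means were 7.02 ± 0.12 and 6.88 ± 0.21, a difference of 0.18 (SE 0.08, 95% interval 0.00 to 0.35, p = 0.0484 and adjusted p = 0.342 by limma, exact permutation p = 0.127). The 3 pups of mother 6 all had a value of 6.70, while the 5 pups of mother 5 had a mean of 6.98, close to the CSD litter means of 7.01 and 7.02. The VD litters overlapped, as VD pup 5 of mother 5 had 6.68. With sex in the model, the estimate for the litter of mother 6 against that of mother 5 was a log2 difference of -0.36, just outside the threshold (SE 0.08, limma adjusted p = 0.0583). Without the litter of mother 6 the delivery difference was 0.06, and without the litter of mother 5 it was 0.39 and passed the threshold (limma adjusted p = 0.0302). It was 0.36 with the intensity as corrected by the scanner software (limma adjusted p = 0.497) and 0.31 with the authors' gene matrix (limma adjusted p = 0.344).

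Tph1 was read by 3 probes. The brightest averaged 8.11 ± 0.20 in CSD and 7.86 ± 0.36 in VD pups, a difference of 0.31 (SE 0.13, limma adjusted p = 0.275 over all probes). On this probe the pups of mother 6 had 7.51, 7.52 and 7.60, and those of mother 5 ranged from 7.60 to 8.43. The litter of mother 6 was lower than that of mother 5 on it (-0.65, SE 0.11, limma adjusted p = 0.0188 over 56366 probes), a contrast in which 0.915% of probes passed. A dimmer probe, designed on another transcript, went the same way, with a delivery difference of 0.24 (SE 0.08, limma adjusted p = 0.144) and a litter difference of -0.34 (limma adjusted p = 0.0841), but it was well above background in 8 CSD and only 4 VD pups. The third probe, annotated to the same transcript as the brightest, was well above background on 0 arrays and differed by -0.03. The average over the 3 probes thus includes a probe without measurable signal.

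**Figure D2:**
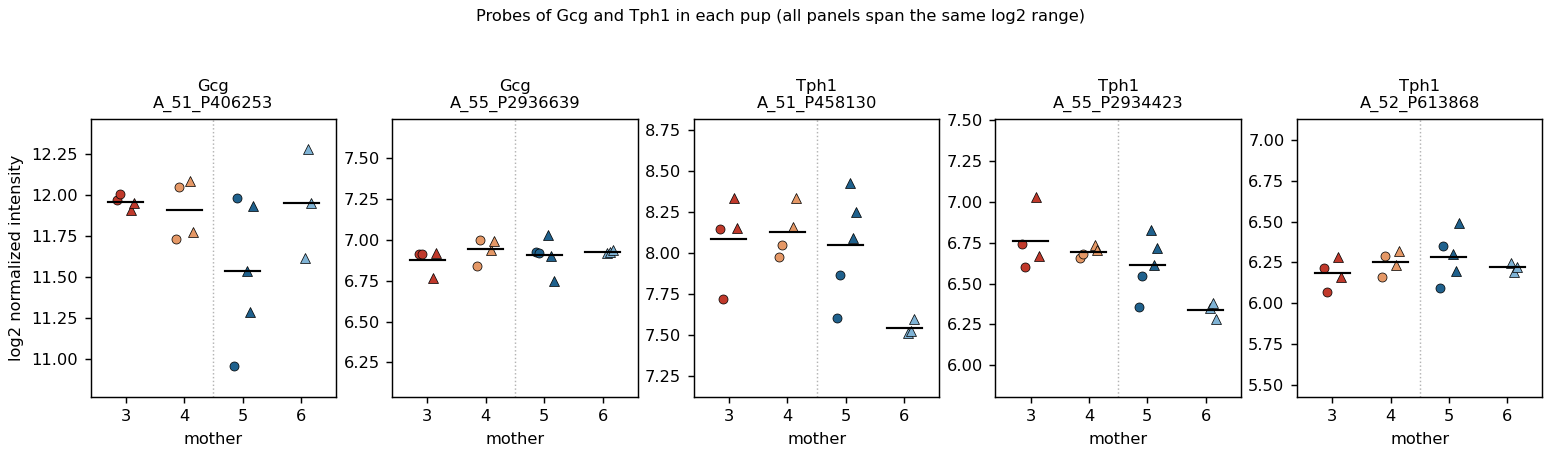
Log2 normalized intensity (vertical axis, all panels spanning the same log2 range) of the 2 Gcg probes and 3 Tph1 probes in each pup, by biological mother (CSD 3 and 4, VD 5 and 6). Symbols and colours mark sex and litter as circles (female), triangles (male) and bars (litter mean). On the brightest Tph1 probe the 3 pups of mother 6 lie at 7.51 to 7.60, and on the first Gcg probe mother 5 has the 2 lowest pups.

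Neurod1 ranged from 7.86 to 8.50 in CSD pups (median 8.13) and from 7.85 to 8.39 in VD pups (median 8.08). The means of 8.14 ± 0.22 and 8.10 ± 0.19 differed by 0.06 (SE 0.10, 95% interval -0.16 to 0.28, limma adjusted p = 0.838), and by 0.01 without VD pup 4 and 0.11 without CSD pup 9.

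Sst, which inhibits the release of other gut hormones, had the widest spread of the 10 genes. It ranged from 11.71 to 12.63 in CSD pups (median 12.36) and from 11.91 to 13.50 in VD pups (median 12.37). The highest value belonged to VD pup 4, a female of mother 5, and the next VD pup was at 12.74. The means were 12.30 ± 0.31 and 12.46 ± 0.51, a difference of -0.21 (SE 0.20, 95% interval -0.65 to 0.22, limma adjusted p = 0.698), which became 0.00 without VD pup 4. The values of pups of mother 6 (11.91 to 12.19) overlapped with those of mother 5 (12.10 to 13.50). With sex in the model, the estimate for mother 6 against mother 5 was -0.59 and did not pass (SE 0.26, limma adjusted p = 0.393).

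Cck, a hormone mainly of the small intestine that contracts the gallbladder, ranged from 7.16 to 7.43 in CSD pups (median 7.23) and from 7.04 to 7.47 in VD pups (median 7.24). The means of 7.26 ± 0.09 and 7.25 ± 0.15 differed by 0.02 (SE 0.07, 95% interval -0.12 to 0.16, limma adjusted p = 0.939).

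Nts, a peptide of enteroendocrine N cells and of neurons, was measured close to background. Its probe is shown as it spells the hormone (minus strand of chr10:101944967-101945026, mm9). The capitals mark pairs of adjacent codons for basic residues. The last pair is the cleavage site that follows the neurotensin sequence, and the first lies inside the peptide.
Nts: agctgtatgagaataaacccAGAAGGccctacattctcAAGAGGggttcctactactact
Nts ranged from 6.04 to 6.43 in CSD pups (median 6.19) and from 6.16 to 6.97 in VD pups (median 6.25). It was well above background in CSD pup 6 and in VD pups 6 and 11, which had 6.43, 6.40 and 6.97. The means of 6.21 ± 0.16 and 6.34 ± 0.26 differed by -0.08 (SE 0.10, 95% interval -0.30 to 0.13, limma adjusted p = 0.773), and by -0.01 without VD pup 11. The background correction compresses differences near background, and with the intensity as corrected by the scanner software the difference was -0.34 (limma adjusted p = 0.808).

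**Figure D3:**
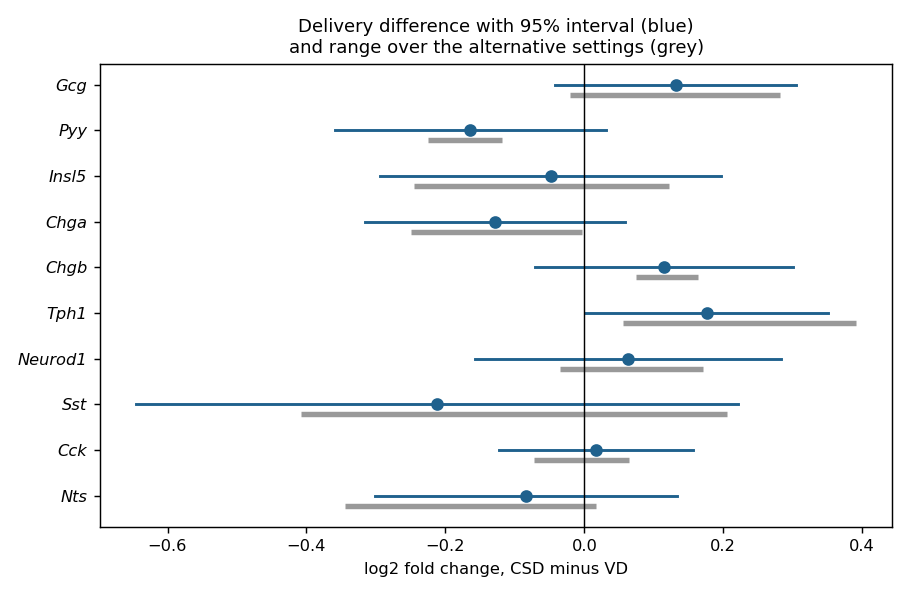
Log2 fold change of CSD over VD pups, adjusted for sex (horizontal axis), for each enteroendocrine gene. Blue points and lines are the estimates with 95% intervals (8 pups per group). Grey bars span the estimates under all alternatives run, including those that left out pups, litters, a slide or females. Tph1 alone has an interval that does not reach below 0.00. Its grey bar runs from 0.06 (without the litter of mother 6) to 0.39 (without the litter of mother 5).

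The other contrasts of the design gave no call among the 10 genes. For males against females, adjusted p-values of the 10 genes were 0.832 or higher (0.0599% of all genes passed). The delivery by sex interaction had adjusted p-values of 0.981 or higher (0.00272% of all genes passed), and the smallest unadjusted p was 0.0553 for Cck. Between the CSD litters, mothers 4 and 3, adjusted p-values were 0.742 or higher (0.0872% passed). Between the VD litters, mothers 6 and 5, the 10 genes had 0 calls and 0.874% of all genes passed, with Tph1 the smallest at 0.0583.

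The within-litter SD was between 0.14 (Cck) and 0.37 (Sst), against a median of 0.10 over all genes, which put the 10 genes between the 71.3rd percentile (Cck) and the 96.5th percentile (Sst). All genes include 9258 that were well above background on 0 arrays. The median of the 10 genes was 0.19, and it was as high or higher in several other lists, at 0.19 for mast cell markers, 0.23 for other gut hormones and peptides, 0.24 for posterior Hox genes and 0.30 for colonocyte markers. This spread was shared between some of the genes. After centring on the litter, Chgb and Neurod1 rose and fell together over the 16 pups (Pearson's r = 0.78, permutation p = 0.00019, Spearman's rho = 0.81, permutation p = 0.00054, 100000 draws within litters), with adjusted p-values of 0.00855 and 0.0243 over all 45 pairs. CSD pups 3, 6 and 8 were high for both genes within their litters, and CSD pup 2 and VD pup 4 were low for both. Without the 2 pups farthest from the median of Chgb, r was 0.81, and r was 0.68 and 0.83 on the 2 slides. Pyy and Neurod1 had r = 0.74 (permutation p = 0.00389, adjusted p = 0.0636) and rho = 0.77 (permutation p = 0.00195, adjusted p = 0.0439), and r was 0.69 without the 2 pups farthest from the median of Pyy. Pyy and Chgb had r = 0.73 (permutation p = 0.00424, adjusted p = 0.0636) and rho = 0.71 (permutation p = 0.00331, adjusted p = 0.0496), and r was 0.67 without the same 2 pups. These 3 pairs were singled out after their values were seen.

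Of the 6 pairs set out in the design, none passed adjustment over the 6. Chga and Chgb had r = 0.65 (permutation p = 0.0461, adjusted p = 0.276) and rho = 0.59 (permutation p = 0.0619, adjusted p = 0.372), and r was 0.41 without the 2 pups farthest from the median of Chga. Their r was 0.61 and 0.70 on the 2 slides, 0.90 within the 8 CSD pups and 0.01 within the 8 VD pups, a contrast that was not tested. For the L-cell hormones, Gcg and Pyy had r = -0.16 (permutation p = 0.626, adjusted p = 0.879) and rho = -0.27 (permutation p = 0.368, adjusted p = 0.552). Gcg and Insl5 had r = 0.41 (permutation p = 0.0938, adjusted p = 0.281) and rho = 0.40 (permutation p = 0.140, adjusted p = 0.420), and r was 0.25 without the 2 pups farthest from the median of Gcg. Pyy and Insl5 had r = 0.27 (permutation p = 0.321, adjusted p = 0.641) and rho = 0.29 (permutation p = 0.315, adjusted p = 0.552). Chga and Tph1 had r = -0.03 (permutation p = 0.882) and rho = 0.01 (permutation p = 0.978). Sst and Cck had r = 0.14 (permutation p = 0.732) and rho = 0.13 (permutation p = 0.674). Chgb, Neurod1 and Pyy were also set against the mean of enteric neuron markers, of general epithelial genes and of smooth muscle genes, centred in the same way. Their r lay between -0.24 and 0.41, with an adjusted permutation p of 0.938 for each of the 9 relations, and their rho between -0.30 and 0.34, with an adjusted permutation p of 0.952 for each.

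**Figure D4:**
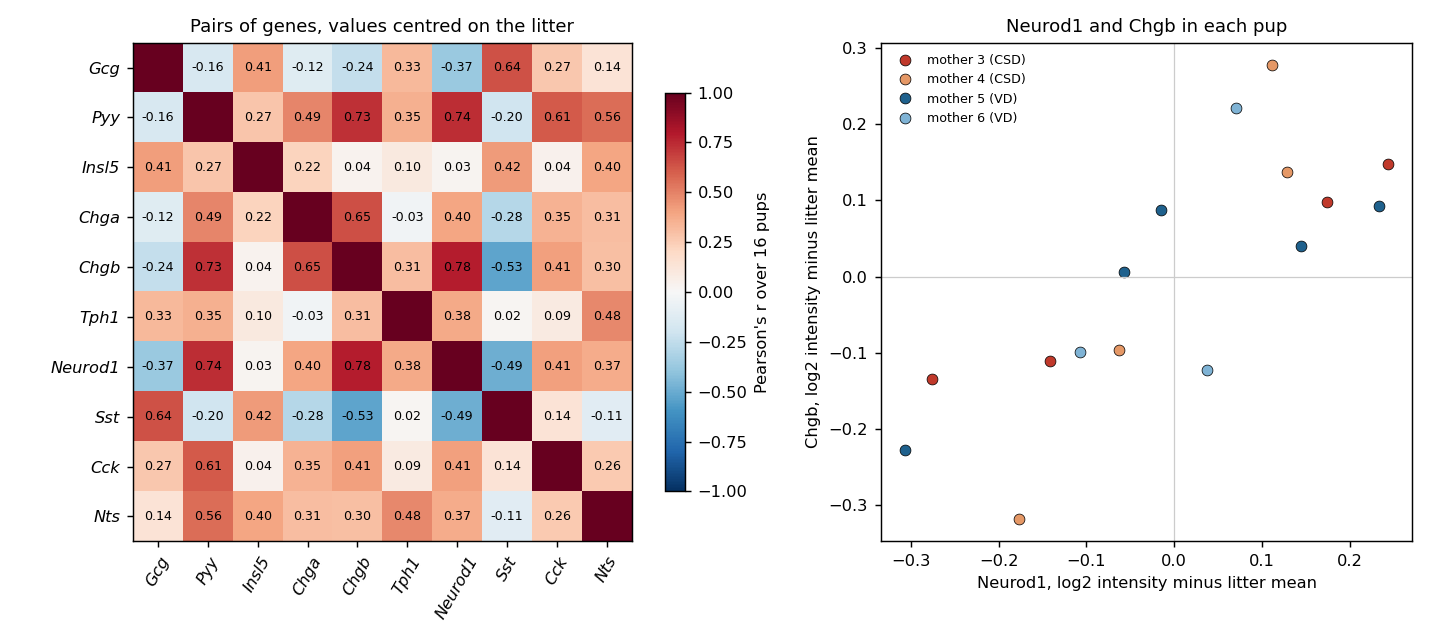
Left, Pearson's r over 16 pups for each pair of enteroendocrine genes, on log2 intensities centred on the litter mean (colour scale from -1 to 1). Right, Chgb against Neurod1 in each pup, both as log2 intensity minus the litter mean and coloured by mother, with r = 0.78.

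The 6 further lists hold the genes that surround these hormones. Of 136 such genes tested, 2 were called, Tox3 and Slc18a2, both higher in CSD pups, a share close to the 1.25% of all genes called. Among 18 other gut hormones and peptides, 10 were higher, 8 lower and 0 called, with a median log2 fold change of 0.02. The smallest p-values were those of guanylin (Guca2a, which drives chloride secretion and comes mainly from goblet cells and colonocytes, 16.25 ± 0.41 against 15.57 ± 0.51, difference 0.66, SE 0.23, limma adjusted p = 0.180) and of amylin (Iapp, difference -0.19, SE 0.07, limma adjusted p = 0.215). Iapp was close to background, and well above it in 5 CSD and 8 VD pups. Among 20 granins and prohormone-processing genes, 10 were higher, 10 lower and 0 called, with a median of -0.01. The smallest p-values were those of the vesicle protein synaptophysin (Syp, 10.29 ± 0.06 against 10.45 ± 0.10, difference -0.16, SE 0.04, limma adjusted p = 0.0943) and of Resp18, an endocrine granule protein (difference 0.15, SE 0.08, limma adjusted p = 0.409).

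Among 28 transcription factors of the lineage and its secretory progenitors, 18 were higher and 10 lower, with a median of 0.04, and 1 was called. Tox3, a high mobility group box factor, ranged from 9.00 to 9.47 in CSD pups (median 9.17) and from 8.63 to 8.91 in VD pups (median 8.73). All 8 CSD pups were above all 8 VD pups. The means were 9.18 ± 0.15 and 8.75 ± 0.10, a difference of 0.41 (SE 0.06, 95% interval 0.27 to 0.55, limma adjusted p = 0.00807). The litter means were 9.21 and 9.16 against 8.77 and 8.73, and the difference was 0.48 on slide 1 and 0.33 on slide 2. Tox3 passed the threshold under 30 of 37 alternative settings (limma adjusted p from 0.00263 to 0.405), and not with litter means as samples (0.224). In the fit on litter means, 0 of all 36711 genes passed. Of the 28, 7 had an unadjusted p under 0.05, a share of 25% against 14.5% of all genes. Foxa2, a factor of endodermal secretory lineages, was just outside the threshold (13.03 ± 0.16 against 12.71 ± 0.15, difference 0.34, SE 0.08, limma adjusted p = 0.0506). It passed under 6 of 37 alternative settings, among them slide as a fixed effect (limma adjusted p = 0.0122), and not with litter means as samples (0.236). The other 5 with an unadjusted p under 0.05 had limma adjusted p-values from 0.122 to 0.326. The log2 difference was positive for Atoh1 (0.32) and Pax6 (0.07) and negative for Hhex (-0.35), Sox4 (-0.14) and Fev (-0.10), and 7 CSD pups for Sox4 and 6 for Hhex were below all VD pups.

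Among 13 genes of serotonin synthesis, transport and breakdown, 9 were higher and 4 lower, with a median of 0.05, and 1 was called. Slc18a2, the vesicular monoamine transporter 2, ranged from 7.91 to 8.16 in CSD pups (median 8.06) and from 7.74 to 7.96 in VD pups (median 7.87). Of the CSD pups, 6 were above all VD pups. The means were 8.04 ± 0.08 and 7.85 ± 0.08, a difference of 0.21 (SE 0.04, 95% interval 0.11 to 0.30, limma adjusted p = 0.0382). Both VD litters had a mean of 7.85. It passed the threshold under 16 of 37 alternative settings (limma adjusted p from 0.0190 to 0.542), and not with litter means as samples (0.295), where 0 of all genes passed. Monoamine oxidase B (Maob), which breaks down amines, differed by 0.24 (SE 0.06, limma adjusted p = 0.0608). Slc18a2 is also used by mast cells. Of 12 mast cell markers, 10 were higher and 2 lower in CSD pups and 0 called, with a median of 0.12, and their mean log2 intensity was 7.65 ± 0.22 in CSD and 7.45 ± 0.22 in VD pups. Their summed intensity on a linear scale ranged from 1962 to 5265 over the pups, with a median of 3185 in CSD and 2661 in VD pups. The protease Tpsb2 differed by 0.48 (SE 0.14, limma adjusted p = 0.111), Kit by -0.02 (SE 0.06), Cma1 by 0.57 (SE 0.23, limma adjusted p = 0.259), and the brightest of the list, Mcpt4, by 0.60 (SE 0.28, limma adjusted p = 0.349). On all 16 arrays, 9 of the 12 were well above background. The part of mast cells in the Slc18a2 result was not tested.

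Among 28 sensors of nutrients and microbial metabolites, 15 were higher, 13 lower and 0 called, with a median of 0.01. The smallest p-values were those of Olfr78 and Ffar2, both receptors of short-chain fatty acids. Olfr78 averaged 7.41 ± 0.31 against 7.92 ± 0.39, a difference of -0.40 (SE 0.14, limma adjusted p = 0.187), with 5 CSD pups below all VD pups. Ffar2, which is also expressed by neutrophils, averaged 10.21 ± 0.41 against 10.60 ± 0.35, a difference of -0.48 (SE 0.17, limma adjusted p = 0.196), with 6 CSD pups below all VD pups. Ffar3 and Olfr558, which also respond to short-chain fatty acids, differed by 0.03 (limma adjusted p = 0.889) and 0.09 (limma adjusted p = 0.797). Among 29 receptors of the hormones, 14 were higher, 15 lower and 0 called, with a median of -0.01. The smallest p-values were those of the somatostatin receptor Sstr5 (difference -0.11, SE 0.04, limma adjusted p = 0.206) and the serotonin receptor Htr4 (difference -0.35, SE 0.14, limma adjusted p = 0.253).

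**Figure D5:**
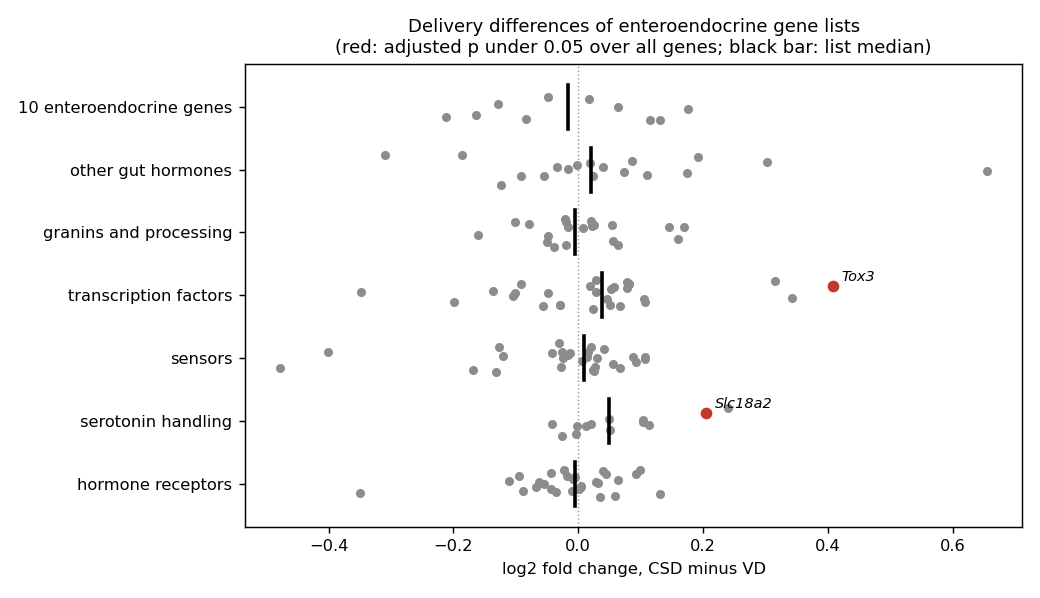
Log2 fold change of CSD over VD pups (horizontal axis) for each gene of 7 lists (rows, with points spread vertically for legibility). Black bars are list medians, which lie between -0.02 and 0.05, and the red points, Tox3 at 0.41 and Slc18a2 at 0.21, are the 2 genes with an adjusted p under 0.05.

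The labelled tissue was checked against colon markers, of which Aqp8, Zg16 and Hoxb13 were well above background on all 16 arrays. Of 14 small intestine markers, 6 were so as well, among them Mep1a (13.71 ± 0.46 in CSD and 13.30 ± 0.37 in VD pups), and 4 were so on 0 arrays, among them Sis. Each of the region and cell type lists had 0 calls. Posterior Hox genes, which mark the position along the gut, were lower in CSD pups for 9 of 11 and higher for 2, with a median of -0.08. Their mean level was 9.89 ± 0.15 in CSD and 9.996 ± 0.21 in VD pups, and the brightest, Hoxb13, differed by -0.15 (SE 0.07, limma adjusted p = 0.348), while Hoxa13 differed by 0.39 (SE 0.11, limma adjusted p = 0.0902) and Hoxb9 by -0.20 (SE 0.09, limma adjusted p = 0.329). Colonocyte markers were higher for 10 of 12 (median 0.30, mean level 11.29 ± 0.16 against 10.98 ± 0.18, brightest gene Aqp8), goblet cell markers for 8 of 10 (median 0.17, 15.35 ± 0.13 against 15.17 ± 0.11, brightest gene Zg16) and general epithelial genes for 8 of 10 (median 0.11, 14.87 ± 0.13 against 14.76 ± 0.12, brightest gene Krt8). Smooth muscle markers were lower for 7 of 8 (median -0.13, 12.71 ± 0.18 against 12.84 ± 0.17, brightest gene Tagln). The smallest p-values of these lists belonged to Slc26a3 (0.45, limma adjusted p = 0.113) and Slc9a3 (0.88, 0.126) for colonocytes, to Spdef (0.29, 0.0526) and Fcgbp (0.59, 0.0722) for goblet cells, to Epcam (0.17, 0.257) and Cldn7 (0.14, 0.377) for epithelium, and to Smtn (-0.19, 0.275) and Acta2 (-0.17, 0.419) for smooth muscle, each with its log2 difference and adjusted p. On all 16 arrays, 10 of 11 Hox genes, 11 of 12 colonocyte markers and all genes of the other 3 lists were well above background. The part of these shifts in the values of the 10 enteroendocrine genes was not tested.

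Other sources of the same transcripts were also followed. Enteric neurons, which express granins, Sst and Nts as well, gave 13 markers higher and 4 lower (median 0.05, mean level 8.09 ± 0.09 against 8.06 ± 0.09), and enteric glia 4 higher and 4 lower (7.89 ± 0.14 against 7.92 ± 0.11). The smallest p-values were those of Nos1 (log2 difference 0.10, limma adjusted p = 0.421) and Uchl1 (-0.22, 0.474) in neurons, Uchl1 being the brightest of that list, and of Sox10 (-0.16, 0.381) and Erbb3 (0.09, 0.579) in glia. All 17 neuron markers and 7 of 8 glia markers were well above background on all arrays. Pancreas markers, of interest because islets express Gcg and Sst, gave 7 higher and 5 lower (median 0.01), and 3 of 12 were well above background on all arrays, among them the brightest, Cela1. Pdx1 differed by 0.14 (limma adjusted p = 0.521), and Ins1 by 0.07 (limma adjusted p = 0.559) with 0 arrays well above background. Small intestine markers gave 7 higher and 7 lower (median -0.01), with Fabp2 differing by 0.63 (SE 0.24, limma adjusted p = 0.207) and Apoc3 by -0.13 (SE 0.05, limma adjusted p = 0.300), the brightest being Mep1a, and 6 of 14 were well above background on all arrays. Tuft cell markers gave 2 higher and 7 lower (median -0.07), with Ptgs1 differing by 0.20 (limma adjusted p = 0.126) and Avil by 0.11 (limma adjusted p = 0.386), and 5 of 9 were well above background on all arrays.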

How the data were processed

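The 10 genes and the lists around them were chosen with earlier results of these data known, and no list is independent evidence. Each array's scanner output, deposited by the authors, gives a mean intensity and a local background for every spot. The authors also deposited a gene matrix in log2 units, produced with limma 3.38 per the paper's methods (background handling of unnamed kind, quantile normalization, removal of weak probes and a mean per gene), which served as an alternative. Here, normexp (offset 50) was run over the 62976 spots of an array in limma 3.58.1 (R 4.3.3), and spots that were controls or marked as outliers were dropped. Log2 values were quantile normalized and replicate spots averaged. A probe was kept (56366 of 56605) when it exceeded the lowest 5% of at least 4 arrays, and probes sharing a gene name were averaged. Gene names and mm9 positions are those of the scanner output. The model, fitted to all genes with lmFit and eBayes, held delivery and sex as fixed terms, with the mother random through duplicateCorrelation (consensus 0.0152). A call required an adjusted p (Benjamini-Hochberg) below 0.05. Litters were compared with the 4 litters and sex as fixed terms. Exact permutation tests were two-sided and used all 12870 assignments of pups.

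All 10 genes are named. From each list, the text names the called genes, or where there were none the 2 of smallest p. For lists of other cell types it adds the brightest gene, except for tuft cell markers, where it is not reported here. Foxa2, Atoh1, Pax6, Hhex, Sox4, Fev, Ffar3, Olfr558, Maob and Kit were added after their values were seen. Pups of a group are separate animals, and the number of arrays and litters limits precision. The litter correlation was estimated from 4 litters nested in the delivery groups. Such an estimate tends to be too low, which makes adjusted p-values too small and calls too frequent. Alternatives covered background correction, filters, probe rules, model terms, slides, males only, pup numbers as a block, and omission of single pups or litters. Plots were drawn with matplotlib.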

Additional observations from a re-analysis of the deposited data

Results flagged for a closer look

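Nts in the VD pups contained 1 sample far from the others. VD pup 11 had a log2 intensity of 6.97, and the next VD pup was at 6.40. The gap was 0.702 of the range of the 8 VD pups, above the 95% critical value of Dixon's test. It was the 1 such gap, measured against the range of its group, among the 20 sets tested (10 genes in each of 2 groups), and chance gives about 1 in 20. The array of this pup also had the smallest share of spots well above background, 58.7%. The part of the array in this value was not tested.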

How the results depend on the processing

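The number of the 10 genes called was 0 under 36 of 37 alternatives, and it was 1 (Tph1) without the litter of mother 5. Leaving out single pups gave 0 each time. With litter means as samples, on slide 2 alone, in males alone and with pup numbers as a block, 0 of all genes were called. The direction held under every alternative run for Pyy, Chga, Chgb and Tph1. It reversed for the others, whose cause was not tested. The log2 difference on slide 1 alone was 0.12 for Insl5 and 0.017 for Nts, and on slide 2 alone it was -0.019 for Gcg and -0.022 for Cck. In males alone it was -0.0053 for Neurod1 and -0.073 for Cck. Without the litter of mother 3 it was 0.042 for Insl5, -0.035 for Neurod1 and 0.0053 for Nts. Without that of mother 5 it was -0.021 for Gcg, 0.21 for Sst, -0.047 for Cck and 0.011 for Nts, and without that of mother 6 it was 0.046 for Insl5 and -0.0036 for Neurod1. Other litter omissions kept the direction but moved the value by over 1.5 times, to -0.34 (without mother 3), -0.14 (mother 4) and -0.41 (mother 6) for Sst, 0.20 (mother 6, limma adjusted p = 0.0995) for Gcg, -0.12 (mother 4) and -0.25 (mother 5) for Insl5, 0.17 (mother 4) and 0.14 (mother 5) for Neurod1, 0.026 (mother 3) and 0.029 (mother 4) for Cck, -0.17 (mother 4) and -0.15 (mother 6) for Nts, and 0.39 (mother 5) and 0.056 (mother 6) for Tph1. Over the leave-one-out fits it ranged from -0.12 to 0.015 for Insl5 (positive without CSD pup 8), from -0.027 to 0.043 for Cck (negative without VD pup 5, VD pup 7 or CSD pup 5) and from -0.35 to 0.0014 for Sst (positive without VD pup 4). With no change of direction it ranged from 0.052 (without VD pup 5) to 0.18 for Gcg, from -0.18 to -0.077 (without CSD pup 9) for Chga, from 0.074 (without CSD pup 6) to 0.15 for Chgb, from 0.012 (without VD pup 4) to 0.11 (without CSD pup 9) for Neurod1 and from -0.11 to -0.013 (without VD pup 11) for Nts. Nts was not tested with the strict filter on dim probes. With that filter the Tph1 difference was 0.29. It was 0.32 with the brightest probe per gene, 0.31 with the deposited matrix and 0.36 with the scanner-corrected intensity under both scalings.

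The count of other enteroendocrine genes called was 2. It was 1 with a normexp offset of 16, with the scanner-corrected intensity under both scalings, with the deposited matrix and with the trend and robust options of eBayes, 4 without the mother and 5 without sex in the model. It was 0 with litter means as samples, on either slide alone, in males alone and without the litter of mother 4 or 5, and 12 without the litter of mother 6. It ranged from 1 to 5 over the leave-one-out fits. Calls over all genes, 460 in the model reported, ran from 0 to 2265 over the alternatives, with 2265 without the litter of mother 6 and 145 to 617 without single pups. They were 0 with litter means as samples, on slide 2 alone and in males alone, and 11 on slide 1 alone. Without the litters of mothers 4 and 5 they were 138 and 189. Tox3 was called in 30 of 37 alternatives and Slc18a2 in 16 of 37, with differences from 0.33 to 0.48 and from 0.16 to 0.27. The cause of these shifts was not tested.

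Pup numbers 5 to 9 occur in both groups. Same-numbered pups had correlations of their deviations between -0.05 and 0.22. Of the 5 CSD pups with such a number, 2 correlated best with their own number. Whether the numbers pair the pups was not tested. With the number as a replicate block (10 pups, without sex, which the number fixes) 0 of all 36711 genes were called. The 10 genes and the other enteroendocrine genes therefore had 0 calls as well. The Sst difference was 0.18.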
